A study of Mus musculus with 5 samples.

Results

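The proteasome subunit genes were compared between RNA pulled down with SMN, the survival of motor neuron protein, and RNA of mock precipitates. Members were all genes whose symbol is Psma, Psmb, Psmc or Psmd followed by a number and that had a probe set carrying no other gene symbol. This gave 39 of the 19937 genes measured, 19 of the core particle (8 Psma and 11 Psmb) and 20 of the regulatory particle (6 Psmc and 14 Psmd). The regulatory class was set by name and takes in the assembly chaperones Psmd5, Psmd9 and Psmd10. Where a gene had several probe sets, the brightest by its mean over all arrays was used.

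The arrays measured anti-FLAG precipitates of NSC-34 cells, a mouse line described as motor neuron-like. In 3 of them (FLAG-SMN IP) the cells carried a construct for 3XFLAG-tagged full-length SMN, and in 2 (control IP) they carried no FLAG construct, so that the control measures RNA retained without a tagged protein. Both groups had been differentiated in 1% serum, given 3 µg/ml doxycycline for 3 days, irradiated once with ultraviolet light at 400 mJ/cm2 and precipitated on the same kind of magnetic bead. Differentiation is given as 3 days in the growth protocol and as 48 hours before doxycycline in the treatment protocol. The labels do not say whether the tagged line is 1 clone, nor whether replicates came from separate cultures. The p-values therefore rest on array-to-array spread alone, and that spread may be technical. RNA of whole lysates was not analysed here, so less of an RNA in the precipitate and less of it in the cells cannot be told apart, nor can fewer cells that express it and less of it per cell.

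The proteasome is the protease that destroys proteins marked with ubiquitin chains. Its barrel-shaped core particle has outer rings of alpha subunits (Psma genes) and inner rings of beta subunits (Psmb genes), some of which carry the cutting sites. The regulatory particle caps the barrel: its base holds a ring of ATPases (Psmc genes) that unfold the substrate, and the other base and lid subunits (Psmd genes) bind ubiquitin and remove it. Every subunit is needed in a fixed ratio, and cells are known to raise transcription of subunit genes together when proteasome capacity falls short. SMN protein is itself known to be degraded through this route.

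Promoter sequences are shown for the members on which the comparison turns, because these genes are known to share control by Nfe2l1 and its relative Nfe2l2, factors that bind antioxidant response elements. Psmb5 and Psmb3 had the lowest differences of the core particle and Psmc4 the smallest p-value of all members. Each line gives the 250 bases before the annotated start, 5′ to 3′ on the gene's strand, from RefSeq on GRCm38.p6. Psmb5 lies at chr14:54617996-54618245 (minus strand), Psmb3 at chr11:97703184-97703433 (plus strand) and Psmc4 at chr7:28050093-28050342 (minus strand). Capitals mark matches to TGANNNNGC, the core letters of the element, on either strand.
Psmb5: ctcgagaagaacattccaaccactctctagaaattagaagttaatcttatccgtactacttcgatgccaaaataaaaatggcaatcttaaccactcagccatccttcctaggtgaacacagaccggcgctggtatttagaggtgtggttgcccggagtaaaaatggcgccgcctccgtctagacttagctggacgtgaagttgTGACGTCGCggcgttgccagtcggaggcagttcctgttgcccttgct
Psmb3: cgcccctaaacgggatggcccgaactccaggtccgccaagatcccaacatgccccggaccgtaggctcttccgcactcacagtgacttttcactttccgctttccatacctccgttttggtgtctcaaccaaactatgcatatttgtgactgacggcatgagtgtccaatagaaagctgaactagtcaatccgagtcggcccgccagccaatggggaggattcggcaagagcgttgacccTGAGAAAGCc
Psmc4: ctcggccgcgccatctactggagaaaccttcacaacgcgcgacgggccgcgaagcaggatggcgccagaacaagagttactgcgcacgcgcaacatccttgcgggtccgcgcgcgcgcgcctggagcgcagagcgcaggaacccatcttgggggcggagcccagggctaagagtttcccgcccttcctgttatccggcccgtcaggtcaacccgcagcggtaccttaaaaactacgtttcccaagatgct

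Psmb5 and Psmb3 each held 1 match in this window, whose first base lay 47 and 10 bases before the start, respectively, and Psmc4 held none. In the full 300-base promoters, which also take in the 50 bases after the start, TGANNNNGC was found in 20 of 34 promoters of 32 members (58.8%) and in 41.3% of all 32851 promoters of that length. The other 7 members (Psma8, Psmb1, Psmb2, Psmb7, Psmc3, Psmd3 and Psmd7) had no promoter entry. Psmb2, with a difference of -1.003, is thus missing from the comparison of matches below. By particle, 12 of 16 core promoters and 8 of 18 regulatory promoters held it. Members with a match had a median log2 difference between precipitates of 0.02 (n = 19, from -1.42 to 0.54) and those without one 0.11 (n = 13, from -0.66 to 0.58). Both ranges reached similar upper ends, and the lower end was farther down with a match, where Psmb5 and Psmb3 lie. A match to these letters is a description and does not show that a factor binds there.

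In all, 11 motifs were searched on both strands. CGGAAG, the core letters bound by ETS factors, was in 55.9% of the members' promoters against 16.9% of all promoters, with 14 of 18 in the regulatory and 5 of 16 in the core particle. Among promoters of protein-coding genes alone, the share with CGGAAG was 21.1%. GGGCGG was in 55.9% against 35.7% of all and 46.2% of protein-coding promoters, and CTTCC, whose reverse overlaps CGGAAG, in 88.2% against 71.4%. CCAAT, the letters bound by NF-Y, was in 38.2% against 37.4%. The others were TGACNNNGC, a subset of the first motif (14.7% against 12.4%), GAANNTTC (5.88% against 7.86%), TATAAA (11.8% against 13.6%), CACGTG (8.82% against 7.15%), the palindrome bound by nuclear respiratory factor 1 (2.94% against 0.971%) and CTTTCC (23.5% against 26.6%). Promoters of all kinds of gene enter these background shares.

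The design asks which RNAs are bound in particles that contain SMN. Smn1, the check of the labels, gave log2 signals of 9.89, 9.50 and 9.46 with the construct and 8.10 and 7.64 without it. Its difference of 1.74 (limma adjusted p = 0.0877) did not itself pass the adjusted threshold of 0.05 used below. The labels do not say which species' sequence the construct carries. Correlations across probe sets set FLAG-SMN IP replicate 1 apart, at r = 0.964 and 0.968 to its fellow replicates, which reached 0.989 with each other. General neuron markers differed in the same array, with a median of 1.06 log2 units above the mean of replicates 2 and 3 over 9 genes, and 4 of the 9 (44.4%) were lower in FLAG-SMN IP at an unadjusted p under 0.05, against 7.21% of all genes. The part of this in the results was not tested. Of 6 motor neuron markers, Isl1 and Slc18a3 lay above the median of the presumed control probe sets on all 5 arrays. Lhx3 and Chat lay above it on 4, whereas Mnx1 and Slc5a7 lay below it on all 5. Chat was at 4.28 to 4.69 where those medians were 4.30 to 4.55.

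No proteasome subunit gene separated the precipitates at the adjusted threshold. Of the 39 members 0 passed the limma test at a Benjamini-Hochberg adjusted p under 0.05 over all 28187 probe sets, where 9 probe sets (0.0319%) passed. The smallest adjusted p among members was 0.238, for Psmc4. At an unadjusted p under 0.05, 0 members were higher and 2 were lower (5.13%), Psmb2 and Psmc4, against 3.25% of all genes higher and 7.21% lower (4.14% and 6.31% of all probe sets). The groups did not overlap for 5 members on the higher side (12.8%) and 7 on the lower side (17.9%), where the shares of all genes were 11.0% and 14.8%. These shares of members were near the background. Differences were positive for 24 members (61.5%, against 50.4% of all genes) and negative for 15, and their median was 0.11, beside 0.002 over all genes and -0.038 over the 9969 brighter genes.

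The intervals show what the arrays could resolve. The 95% confidence interval of the log2 difference contained 0 for 37 members, and for 26 it lay wholly between -1 and 1, that is, within a change of 1 log2 unit either way. For the other 13, among them Psmb2, Psmb3, Psmb5 and Psmc5, the interval reached beyond 1 unit on at least 1 side. All but Psma8 and Psmb11 had signals above the presumed control median on all 5 arrays. Psma8, the testis alpha subunit, was at 3.66 to 4.73, and Psmb11, the thymus beta subunit, at 4.31 to 5.02, so their differences (0.25 and 0.07) were measured near background.

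**Figure D1:**
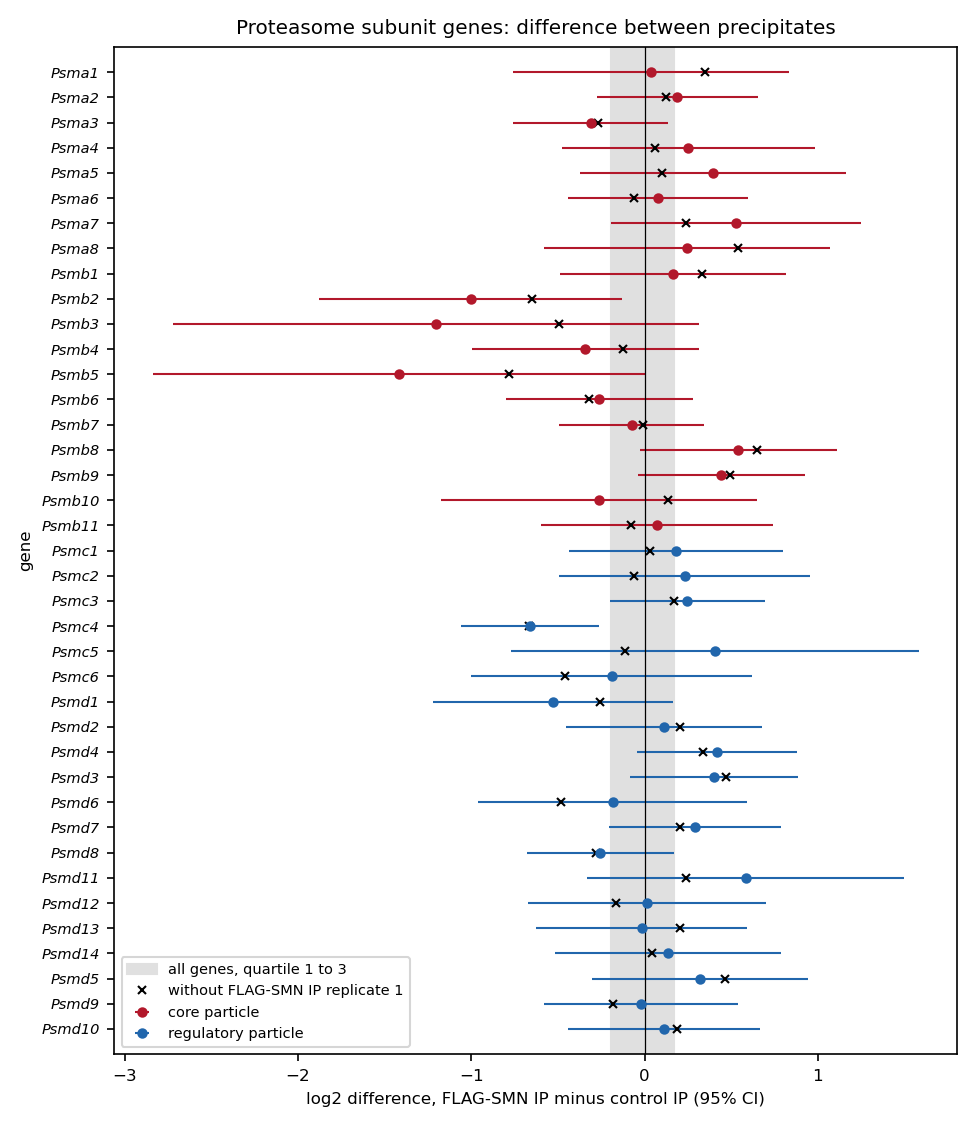
Log2 difference (FLAG-SMN IP minus control IP) of each of the 39 members on the horizontal axis, with 95% confidence intervals from limma; red is the core particle, blue the regulatory particle, crosses the value without FLAG-SMN IP replicate 1, and the grey band the interquartile range of all genes. Psmb2, Psmb3 and Psmb5 lie farthest to the left, between -1.003 and -1.42, and their crosses lie nearer to 0.

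Core and regulatory particle genes did not part as classes. The median log2 difference was 0.07 for the 19 core genes and 0.12 for the 20 regulatory genes, 0.05 apart. Inside the core, the median was 0.22 for Psma genes and -0.26 for Psmb genes (7 of 11 negative). Over the ordinary beta genes Psmb1 to Psmb7 it was -0.34 (6 of 7 negative). These family differences were not tested. Core differences ranged more widely, from -1.42 to 0.54 (SD 0.56 over genes), than regulatory ones, from -0.66 to 0.58 (SD 0.32 over genes). For each array, the mean deviation of core genes from their 5-array means, minus that of regulatory genes, was -0.47, 0.23 and 0.02 in FLAG-SMN IP and 0.30 and -0.08 in control IP. The groups overlapped on this measure, and its group difference of -0.18 was smaller than the pooled SD between replicates of 0.33. Without FLAG-SMN IP replicate 1 the medians were 0.06 for core and 0.04 for regulatory genes. They were then 0.11 for Psma, -0.08 for Psmb and -0.32 for Psmb1 to Psmb7. Core differences then ranged from -0.78 to 0.65 and regulatory ones from -0.67 to 0.47, so the 2 ranges were more alike.

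**Figure D2:**
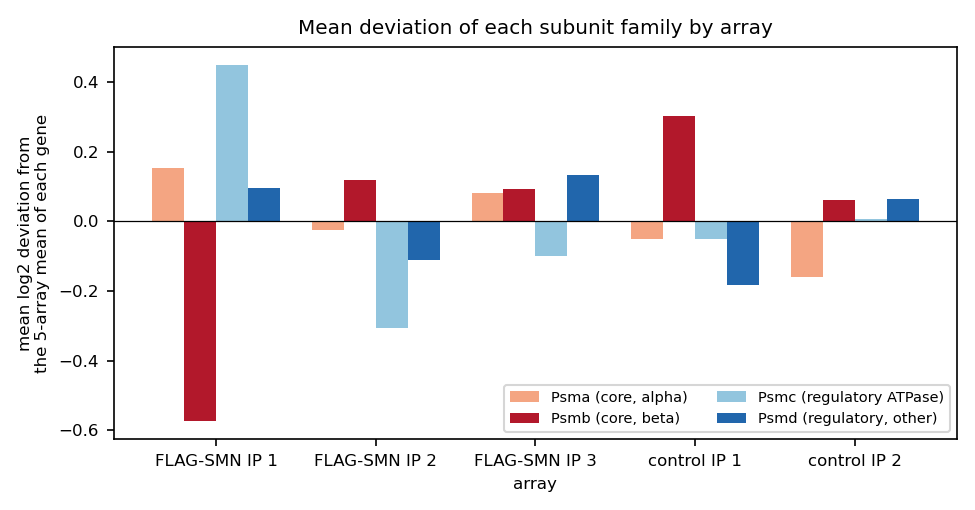
Mean log2 deviation of each subunit family from the 5-array mean of its genes (vertical axis) for every array. FLAG-SMN IP replicate 1 has the lowest Psmb value, -0.57, and the highest Psmc value, 0.45; the other arrays lie between -0.31 and 0.30 for every family.

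Alpha ring genes had differences about as spread as those of the lid genes (SD 0.25 and 0.29 over genes). Of the 8 Psma genes, which form the gated outer rings of the barrel, 7 had positive differences, with a median of 0.22 and a range of -0.31 to 0.53. Psma7 was at 10.96, 10.10 and 10.09 in FLAG-SMN IP and 9.97 and 9.75 in control IP, a difference of 0.53 (SE 0.30; limma adjusted p = 0.659). All 3 FLAG-SMN arrays of Psma7 were above both controls, and replicate 1 was highest. Without that array the difference was 0.24 for Psma7, and for Psma5 it was 0.10 instead of 0.40. The per-array values of Psma7 and Psma3 are given because they were seen not to overlap. Psma3 was the negative one, at 9.47, 9.44 and 9.74 against 9.80 and 9.92 (difference -0.31). Its 3 probe sets gave -0.31, -0.66 and -0.41, and the second of these had the smallest limma adjusted p, 0.297. Both probe sets of Psma5 were positive (0.40 and 0.31). Several subunit genes are known to have near-identical processed copies, so probe sets that share a symbol may read more than 1 locus.

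Among the structural beta genes, Psmb2 and Psmb3 were on the lower side. Psmb2 was at 9.31, 10.51 and 10.25 in FLAG-SMN IP and 11.24 and 10.82 in control IP. Every FLAG-SMN array of Psmb2 was below both controls, and replicate 1 was the lowest. Its means were 10.02 ± 0.63 (SD, n = 3) and 11.03 ± 0.30 (SD, n = 2), a difference of -1.003 (SE 0.37; limma adjusted p = 0.407). Psmb3 was at 9.88, 12.05 and 11.95 against 12.30 and 12.69, again without overlap. Here replicates 2 and 3 lay just under the controls, and replicate 1 lay 2.12 below their mean. The difference was -1.20 (SE 0.64; limma adjusted p = 0.608), and the second Psmb3 probe set also gave -1.20 (limma adjusted p = 0.462). Psmb3 was singled out after its values were seen. Psmb1 (0.16) and Psmb4 (-0.34) overlapped between groups.

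Of the catalytic beta genes, Psmb5 had the lowest difference. Psmb5, whose product carries the chymotrypsin-like site, was at 9.06, 10.80 and 11.12 in FLAG-SMN IP and 11.40 and 12.08 in control IP. All FLAG-SMN arrays of Psmb5 were below the controls, with replicate 1 lowest by 1.90 against the mean of the other FLAG-SMN arrays. The means were 10.32 ± 1.1 (SD, n = 3) and 11.74 ± 0.49 (SD, n = 2), a difference of -1.42 (95% confidence interval -2.84 to 0.01; limma adjusted p = 0.481). Psmb6, with the caspase-like site, was at 10.11, 10.02 and 9.83 against 10.52 and 9.97 and overlapped between groups (difference -0.26). Psmb7, with the trypsin-like site, was at 9.65, 9.82 and 9.87 against 9.87 and 9.84 (difference -0.07; 95% confidence interval -0.49 to 0.34). The interval of Psmb7 did not reach the estimate for Psmb5, but the interval of Psmb5 held the estimates for both Psmb6 and Psmb7, and the differences between these genes were not tested.

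Psmb2, Psmb3 and Psmb5 were the 3 members more than 1 log2 unit lower (7.69% of members, against 1.92% of all genes). All 3 had a mean signal above 10. The 7.69% is a share of members at all signal levels. Psmb2 and Psmb5, at 10.42 and 10.89, were 2 of the 9 members with a mean log2 signal of 10 to 11. Among the 287 genes in that range the share more than 1 unit lower was 4.18%. Psmb3, at 11.77, was the only member at 11 and over, where the share among 171 genes was 4.09%. Removing FLAG-SMN IP replicate 1 gave -0.65 for Psmb2, -0.50 for Psmb3 and -0.78 for Psmb5, each with the 2 remaining arrays still below the controls, and limma adjusted p of 0.271, 0.396 and 0.265. All 3 differences thus kept their sign and were smaller without that array.

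**Figure D3:**
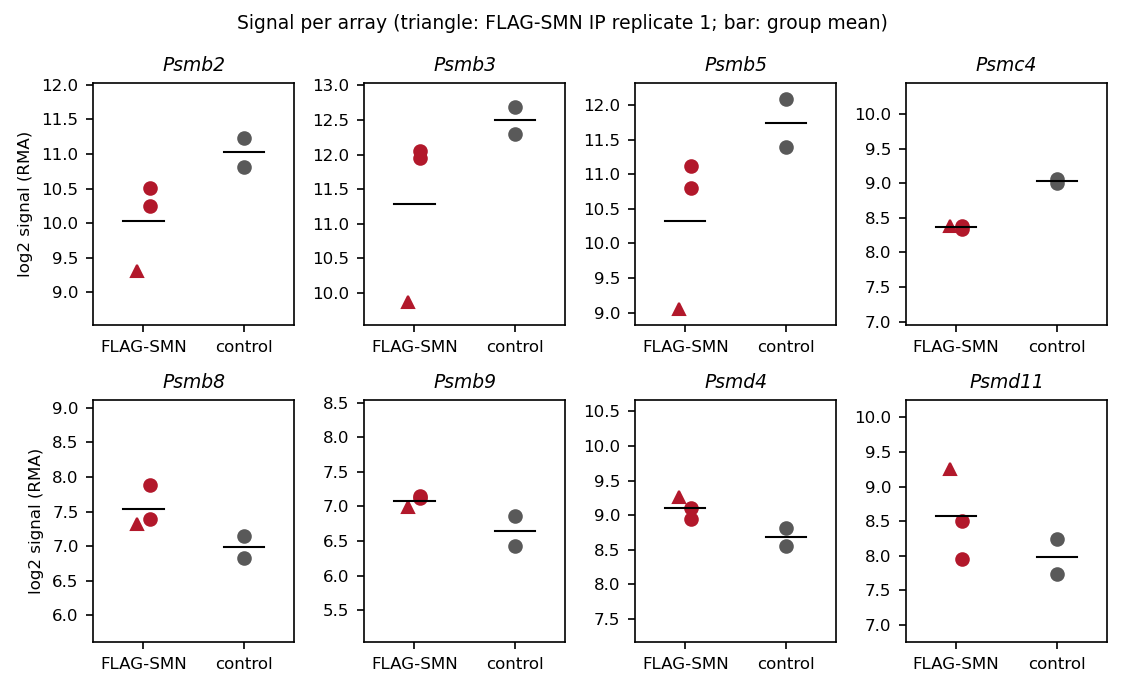
Log2 signal (RMA) of 8 members on each array, on vertical axes of equal span; red is FLAG-SMN IP with replicate 1 as a triangle, grey is control IP, and bars are group means. Psmb2, Psmb3 and Psmb5 show the triangle far below the other arrays, whereas the arrays of Psmc4 lie within 0.1 of each other inside each group.

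The interferon-inducible forms replace the catalytic subunits in immune cells and in inflamed tissue. Psmb8, which takes the place of Psmb5, was at 7.32, 7.39 and 7.88 in FLAG-SMN IP and 7.15 and 6.83 in control IP. Psmb9, which takes the place of Psmb6, was at 6.99, 7.14 and 7.13 against 6.86 and 6.42. For both genes all FLAG-SMN arrays lay above the controls, and neither passed the test: the differences were 0.54 (SE 0.24; limma adjusted p = 0.508) and 0.44 (SE 0.20; limma adjusted p = 0.534). Psmb10, which takes the place of Psmb7, was at 6.45, 7.61 and 7.67 against 7.62 and 7.40, with the first array alone far below the rest. Its difference was -0.26 over all arrays and 0.14 without that array.

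Of the 6 regulatory ATPase genes, Psmc4 had the tightest values. Its signals were 8.38, 8.34 and 8.38 with the construct and 9.06 and 8.997 without it, with no overlap and a gap wider than the spread inside either group. The means were 8.37 ± 0.022 (SD, n = 3) and 9.03 ± 0.042 (SD, n = 2), a difference of -0.66 (SE 0.17; 1.58-fold lower; limma adjusted p = 0.238). The SE comes from a moderated spread, which is wider than the spread of these 5 values. Psmc4 differed by -0.69 to -0.63 whichever array was left out, and replicate 1 was not apart for this gene (0.02 from the others).

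The other ATPases overlapped between groups. Psmc5 was at 9.59, 8.06 and 8.04 against 8.46 and 7.86, so that its difference of 0.40 came with a replicate 1 that was 1.55 above its fellows, and without that array it was -0.11. Psmc2 was at 9.40, 8.48 and 8.57 against 8.68 and 8.50 and likewise gave 0.23 with and -0.06 without replicate 1. Psmc1 was at 9.05, 8.38 and 8.84 against 8.37 and 8.79. Its difference was 0.18, with 0.25 at its second probe set. Psmc3 was at 8.42, 8.10 and 8.29 against 7.94 and 8.11 (difference 0.25). Psmc6 was at 9.26, 8.21 and 8.69 against 8.61 and 9.20 (difference -0.19). In 5 of the 6 ATPase genes FLAG-SMN IP replicate 1 was the highest of all arrays, the exception being Psmc4.

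Base subunits without ATPase activity had differences of both signs. Psmd4, a ubiquitin receptor of the base, was at 9.26, 9.10 and 8.95 in FLAG-SMN IP and 8.82 and 8.56 in control IP, all higher than the controls (difference 0.42; SE 0.19; limma adjusted p = 0.543). Psmd1, a large scaffold subunit, was at 9.06, 9.86 and 9.89 against 10.02 and 10.24, all lower (difference -0.53; SE 0.29; limma adjusted p = 0.629). Without replicate 1 the difference of Psmd1 was -0.26. Psmd2, the other scaffold, gave 0.11 at its brightest probe set and -0.04 at its second.

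The 8 lid genes had differences from -0.26 to 0.58 with a median of 0.07. Psmd14, the deubiquitinase that releases chains before degradation, was at 9.85, 9.31 and 9.83 against 9.22 and 9.85 and overlapped between groups (difference 0.13). Psmd3 was at 8.14, 8.31 and 8.38 against 7.67 and 8.08, with all FLAG-SMN arrays higher (difference 0.40; limma adjusted p = 0.585). Psmd11 had the highest regulatory difference, 0.58 (SE 0.38; limma adjusted p = 0.733), at 9.26, 7.96 and 8.50 against 7.74 and 8.24. Its groups overlapped, and without replicate 1 the difference was 0.24. Psmd8, at -0.26, was the lid gene without overlap on the lower side. Psmd6 (-0.18), Psmd7 (0.29), Psmd12 (0.02) and Psmd13 (-0.02) overlapped. Among the assembly chaperones with a Psmd name, Psmd5 gave 0.32, Psmd10 0.11 and Psmd9 -0.02, and none was free of overlap.

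FLAG-SMN IP replicate 1 was the extreme array for most members. It was the lowest of the 5 arrays for 10 members and the highest for 18. Its gap to the mean of replicates 2 and 3 exceeded the group difference in 29 of the 39. The shares of all genes for these counts were not computed, so the counts cannot be called particular to the members. The gap was over 1 log2 unit in 6 members (15.4%), against 5.44% of all genes. The 4 gaps downwards were all Psmb genes (Psmb2, Psmb3, Psmb5 and Psmb10), and the 2 upwards were Psmc5 and Psmd11. Leaving that array out changed the sign of 7 members, 3 of the core and 4 of the regulatory particle.

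**Figure D4:**
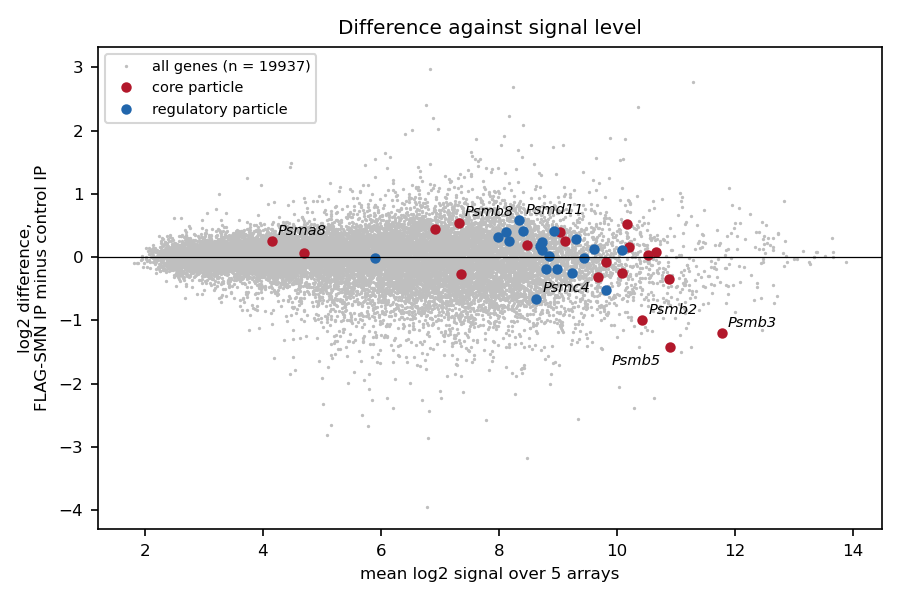
Log2 difference (FLAG-SMN IP minus control IP) against mean log2 signal over the 5 arrays for 19937 genes (grey), with core genes in red and regulatory genes in blue. Psmb2, Psmb3 and Psmb5 lie below the cloud's centre at signals above 10; signal depends on the probes and is not a transcript level.

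Genes of the pathway outside the rule were taken from 3 lists, and 0 of their members passed the adjusted limma threshold. Of 18 other proteasome parts and assembly factors, 2 were higher (11.1%, against 3.25% of all genes) and 1 was lower (5.56%, against 7.21%) at this unadjusted threshold of 0.05, with a list median of -0.10. Zfand2a, a stress-induced proteasome-associated zinc finger gene, was at 7.47, 7.63 and 8.04 against 8.43 and 9.18 (difference -1.09; limma adjusted p = 0.249). Sem1, the smallest lid subunit, was at 11.29, 10.75 and 10.82 against 10.34 and 9.81 (difference 0.88; limma adjusted p = 0.290). Neither gene overlapped between groups. Uchl5, a deubiquitinase of the regulatory particle, was the other higher member (0.71). The proteasome activator genes Psme1, Psme2, Psme3 and Psme4 gave 0.23, -0.20, -0.18 and -0.29.

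Of 14 genes that control transcription of the subunits, 0 were higher and 1 was lower at an unadjusted p under 0.05 (7.14%, against 7.21% of all genes), and the median was -0.13. That gene was Nfyc, a subunit of the CCAAT-binding factor NF-Y, at 6.26, 6.73 and 6.55 against 7.04 and 7.53 (difference -0.77; limma adjusted p = 0.311). Nfe2l2 gave -0.60 (limma adjusted p = 0.527) and Nfe2l1 -0.37 (limma adjusted p = 0.858), the latter with replicate 1 at 8.93 and its fellows at 7.81 and 8.01.

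Of 22 genes for ubiquitin supply, activation and delivery, 0 were higher and 4 were lower at an unadjusted p under 0.05 (18.2%, against 7.21% of all genes), and the list median was -0.20. The share of lower genes was 3.28% at a mean log2 signal under 6 and 11.1% to 13.3% in the bands above it, without a steady rise. This list had a median log2 signal of 9.15, and 13.3% of all genes with a signal of 9 to 10 were lower at that threshold. Ube2d1, a ubiquitin-conjugating enzyme gene, was at 8.76, 8.89 and 8.70 in FLAG-SMN IP and 9.86 and 10.08 in control IP. The groups of Ube2d1 were far apart, and its difference was -1.19 (SE 0.18; limma adjusted p = 0.114). Its relative Ube2d3 was at 11.40, 11.25 and 11.11 against 12.00 and 11.95 (difference -0.72; limma adjusted p = 0.235). Uba6 (-0.82) and Ubqln2 (-0.63) were the other lower members.

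As other large complexes, the 8 chaperonin genes had a median log2 difference of 0.24 and 58 cytosolic ribosomal protein genes 0.28, beside 0.11 for the proteasome subunits. At an unadjusted p under 0.05, 1 of 8 chaperonin genes (12.5%) and 13 of 58 ribosomal protein genes were higher, against 3.25% of all genes. Whether the complexes differ from each other was not tested.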

How the data were processed

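RNA was labelled with biotin from 300 to 500 ng of precipitated RNA per array, per the labels' protocols. The authors deposited log2 values made with RMA, per the submitters' processing notes; RMA corrects background, equalises the arrays' distributions and summarises probes, and its version is not given in the sources used here. Values of 1.28 to 14.15 show the log2 scale. RMA hides any general difference in RNA recovery.

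Of 34760 probe sets, the 6573 with IDs below the lowest ID in the platform annotation were left out as presumed controls, a rule taken after the values were seen, and 28187 were tested. Limma 3.58.1 in R 4.3.3 (lmFit, eBayes, 2-sided, no block) gave differences, intervals and Benjamini-Hochberg adjusted p, threshold 0.05. The fit was tested on simulated data. All 39 members matched RefSeq gene IDs and kept their symbols. Members and lists were chosen with earlier results of these data known, so lists carry no test. Values per array were given for the catalytic, inducible and ATPase genes, Psmd4, Psmd14, and, in each particle, the 4 smallest p-values and extreme differences; Psma3, Psma7 and Psmb3 were added after their values were seen. From each pathway list the 2 smallest p-values were named. Marker lists also held 5 noradrenergic genes (median -0.19; 2, Th and Dbh, lower and 1 higher at an unadjusted p under 0.05) and 11 genes of other cell types (median 0.08, 0 past an unadjusted p under 0.05); motor neuron markers had a median of 0.10 and general neuron markers -0.73. Alternatives were other scaling, filters, variance models, array weights, a replicate block, left-out arrays, averaged probe sets and ordinary subunits only. The number of arrays limits the precision.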

Additional observations from a re-analysis of the deposited data

How the results depend on the processing

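The 0 members past the adjusted threshold stayed at 0 under all 13 alternatives that recompute it. Over all probe sets, the count of 9 became 0 with cyclic loess scaling, with every row of the table and with the replicate block, 51 when centred on the brighter genes and 86 with array weights, and ranged from 0 to 350 when 1 array was left out (350 without FLAG-SMN IP replicate 1, 0 without any other). Of the 39 members, 4 were lower at an unadjusted p under 0.05 with the replicate block (Psmb2, Psmb3, Psmb5 and Psmc4), against 5.50% of all probe sets. With 1 FLAG-SMN IP array left out, 3 to 4 were lower, against 4.90% to 7.30% of all probe sets. The 4 were without replicate 2, where the share was 4.90%. Members higher numbered 2 with cyclic loess (Psmb8 and Psmd3), against 4.97% of all probe sets. They numbered 2 with array weights (Psmb8 and Psmb9), against 5.03%. With 1 FLAG-SMN IP array left out, 0 to 1 were higher, against 3.09% to 5.92%. Class medians ranged from -0.09 to 0.12 (core) and -0.056 to 0.27 (regulatory) over left-out arrays, and core minus regulatory from -0.29 to 0.13, so the sign of the gap between particles depended on single arrays. With ordinary subunits only, that gap was -0.15. The replicate numbers could not be shown to pair the samples (correlations of deviations 0.13 and -0.20); with the replicate block the core median was 0.12, the regulatory median 0.02 and their gap 0.10.

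Psmb10 had a difference of 0.0086 with array weights. Each array in turn was left out for selected members only. Among these the sign turned for Psmb6 (-0.54 to 0.0154), Psmb10 (-0.48 to 0.14), Psmc1 (-0.0275 to 0.39), Psmc2 (-0.0593 to 0.40), Psmc5 (-0.11 to 0.70), Psmc6 (-0.48 to 0.10) and Psmd14 (-0.18 to 0.45). Without FLAG-SMN IP replicate 1 the sign also turned for Psma6 (-0.06), Psmb11 (-0.08), Psmd12 (-0.16) and Psmd13 (0.20). Left-out control arrays leave 1 control, assumed to vary like the other group. The cause of these shifts was not tested.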
